A study of Homo sapiens with 14 samples.

Results

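To describe where H3K4me3 lies outside the promoters of coding genes, narrow H3K4me3 regions far from every protein-coding transcript start were collected from LX-2, a line of human hepatic stellate cells that grows without limit in culture. The regions were chosen by the H3K4me3 peaks themselves. Peaks of the 4 H3K4me3 CUT&Tag libraries were merged where they shared at least 1 bp, and a region was kept if it was called in all 4 libraries, was narrower than 2000 bp and lay more than 3 kb from each start of a protein-coding transcript in the GENCODE annotation of hg19. Of 20393 merged regions, 16098 were called in all 4 libraries and 14286 of these were narrower than 2000 bp. The 3105 distal regions described here are those of the 14286 that passed the distance limit, and the other 11181, at coding promoters, served as the comparison. All cells were labelled wild type and had spent 2 days on a soft matrix (2K in the titles) or a stiff matrix (40K). There were 2 H3K4me3 libraries per matrix. For p-JUN, the phosphorylated form of the AP-1 subunit JUN, there were also 2 libraries per matrix, but those labelled stiff carried TCP in their titles in place of 40K and may come from culture plastic. For H3K27ac 1 merged list per matrix was used, so its replicate error is unknown. No label says that the 2 libraries of a group came from separate cultures, so the spread between them may be technical.

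H3K4me3 is deposited where RNA polymerase II starts transcription, and its highest levels lie at CpG-rich promoters. Long noncoding RNAs (lncRNAs) are transcribed from promoters of the same kind, while active enhancers usually carry H3K27ac with little H3K4me3. JUN pairs with FOS or ATF proteins to form AP-1, which binds many enhancers and answers to stress and mechanical signals in stellate cells and fibroblasts.

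A lncRNA start lay within 1 kb of 947 of the 3105 distal regions (30.5%, 95% Wilson interval 28.9 to 32.1). In 772 of these the start lay inside the region. For 504 the nearest lncRNA had only an Ensembl identifier as its name, 187 were LINC genes and 64 were named as antisense to another gene. The H3K4me3 summit lay downstream of the lncRNA start in 586 of the 947 (61.9%), at a median of 96 bp with quartiles of -159 and 275.5 bp. Another 136 distal regions were at starts of noncoding transcripts of coding genes, 90 at pseudogene starts, 43 at small RNA starts and 29 at other starts. The remaining 1860 (59.9%, interval 58.2 to 61.6) had no annotated start within 1 kb. Of the 1860 regions without a start, 714 had their summit inside a protein-coding gene, 67 of those in an exon, and 900 lay between genes. The median distance of a distal region from a coding start was 28.7 kb, and 583 of the 3105 lay more than 100 kb away.

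Distal regions at lncRNA starts had more H3K4me3 than those without a start, and both had less than coding promoters. The level was read as fragments at the summit, a whole number that the fold and −log10 p of each H3K4me3 peak fix exactly. Wherever 4 values stand in a row below, they are those of soft replicates 1 and 2 and then of stiff replicates 1 and 2. The median region at a lncRNA start held 80, 97, 97 and 138 fragments. The median region without a start held 32 and 38 (soft) and 35 and 46 (stiff). The median coding-promoter region held 144 and 179 (soft) and 185 and 268 (stiff). After all 16098 regions were divided into 10 equal groups by their mean level, 95.7% of the regions without a start lay in the weaker 5 groups, against 72.9% of those at lncRNA starts and 45.5% of coding-promoter regions. Distal regions were also narrower, with a median width of 908 bp against 1229 bp. Level and width belong to the H3K4me3 peaks that chose the regions and are given as a description. These intervals and counts cover counting error only.

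The sequence under the summits differed in the same order. In 301 bases centred on the summit of soft replicate 1, the median ratio of observed to expected CpG was 0.41 in regions without a start, 0.66 at lncRNA starts and 0.72 at coding promoters. A window was called CpG-rich if this ratio was above 0.6 and over 50% of its bases were G or C. That held for 439 of 1860 regions without a start (23.6%), 558 of 947 at lncRNA starts (58.9%) and 7644 of 11181 coding promoters (68.4%). The GC box GGGCGG was found on either strand in 465 of 1860 windows without a start, 46.5% at lncRNA starts, 50.7% at coding promoters and 47.0% over all 16098 regions. The AP-1 site, TGACTCA or TGAGTCA, showed the opposite order. It was found in 11.3% of windows without a start (interval 9.98 to 12.9), 4.65% at lncRNA starts (3.48 to 6.18), 2.53% at coding promoters (2.26 to 2.84) and 3.81% over all regions. The share also varied with H3K4me3 level. In the weakest level group it was 14.6%, 8.64% and 6.03% for these 3 classes, and in the third weakest 5.31%, 3.97% and 2.73%. The order did not hold in the stronger 5 groups, where few regions without a start lie. The CRE site TGACGTCA, which does not contain the AP-1 site, was found in 7 windows without a start (0.376%) and 15 at lncRNA starts (1.58%), against 0.876% of all regions. A match is a description of the letters and not of binding.

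**Figure D1:**
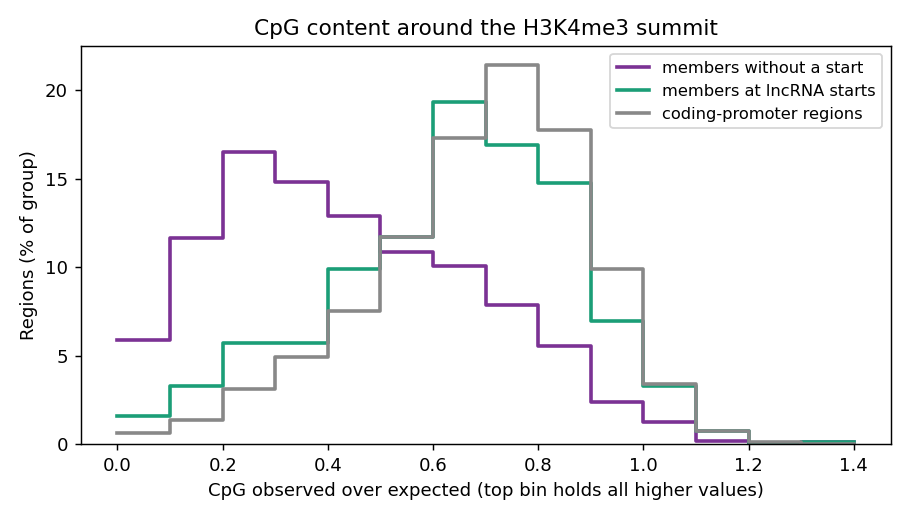
Distribution of the observed over expected CpG ratio in the 301 bases around the H3K4me3 summit, as the percentage of each group in bins of 0.1. Regions without a start peak between 0.2 and 0.3, while regions at lncRNA starts and coding promoters peak between 0.6 and 0.8.

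Windows from 2 distal regions with a lncRNA start within 1 kb are shown, because they differ in CpG. They are the strongest such region and the distal region with the highest stiff over soft ratio. The HIF1A-AS3 start lies 598 bp outside the second region, so that window is not at the start itself. Neither window was CpG-rich by the limit above, with ratios of 0.57 and 0.09. Both windows are 151 bases of the hg19 plus strand around an H3K4me3 summit, with CpG in capitals. The LINC00910 window holds 8 CpG and the HIF1A-AS3 window 1.
LINC00910, chr17:41466137-41466287 (+ strand): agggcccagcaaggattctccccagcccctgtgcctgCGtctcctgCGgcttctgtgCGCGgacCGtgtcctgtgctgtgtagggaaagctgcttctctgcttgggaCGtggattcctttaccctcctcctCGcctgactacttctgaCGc
HIF1A-AS3, chr14:62216568-62216718 (+ strand): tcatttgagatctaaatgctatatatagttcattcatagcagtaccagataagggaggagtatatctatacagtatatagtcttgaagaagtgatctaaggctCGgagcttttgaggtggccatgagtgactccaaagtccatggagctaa

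p-JUN peaks overlapped most distal regions. The share of the 3105 with a p-JUN peak was 64.3%, 61.6%, 55.7% and 63.1%, the last 2 from libraries labelled stiff. The same shares of coding-promoter regions were 58.9%, 55.8%, 47.4% and 59.98%. The share was higher in distal regions in each of the 4 libraries, by 3.08 to 8.35 percentage points and 5.67 on average (two-sided exact sign-flip permutation test over 4 libraries, p = 0.125, the smallest p that 4 libraries can give). Regions without a start had the highest shares, at 66.8% and 65.0% (soft) and 59.4% and 65.5% (labelled stiff). Those at lncRNA starts had 61.4%, 58.1%, 49.9% and 60.1%. The 298 at other starts had 57.7%, 52.0%, 51.3% and 57.0%, below coding promoters except in stiff replicate 1. A p-JUN peak was present in all 4 libraries at 1629 distal regions and in none at 949. Fragments at the p-JUN summits were also higher in regions without a start, with medians of 92 to 101 over the 4 libraries, against 54 to 60 at lncRNA starts and 41 to 48 at coding promoters.

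H3K27ac followed the same order from regions without a start to those at lncRNA starts and then coding promoters. It overlapped 46.7% of distal regions in the soft list (interval 44.9 to 48.5) and 37.3% in the stiff list (35.6 to 39.0), against 39.2% and 28.0% of coding-promoter regions. Of the 1860 regions without a start it overlapped 930 (soft) and 771 (stiff, 41.5%), and of those at lncRNA starts 42.9% and 31.5%. Of those at other starts it overlapped 38.3% and 29.5%. With 1 list per matrix there is no test of these differences. The soft list holds more peaks, and when both lists were given equal length the shares of distal regions were 38.1% on soft and 37.3% on stiff. Both lists had a peak at 1080 distal regions, the soft list alone at 370 (11.9%) and the stiff list alone at 77 (2.48%), against 14.6% and 3.43% of coding-promoter regions for the single lists. Of the distal regions with p-JUN in all 4 libraries, 73.1% (soft) and 62.3% (stiff) had H3K27ac, and of those with no p-JUN peak 10.01% and 3.90%. In all, 962 distal regions carried both marks in every list (4 of p-JUN, 2 of H3K27ac), 665 of them without a start, while 849 had neither mark in any list. H3K27me3, a repressive mark, overlapped 4.15% and 2.38% (soft) and 2.51% and 2.64% (stiff) of distal regions. For coding-promoter regions the shares were 2.68% and 1.50% (soft) and 1.25% and 1.31% (stiff).

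**Figure D2:**
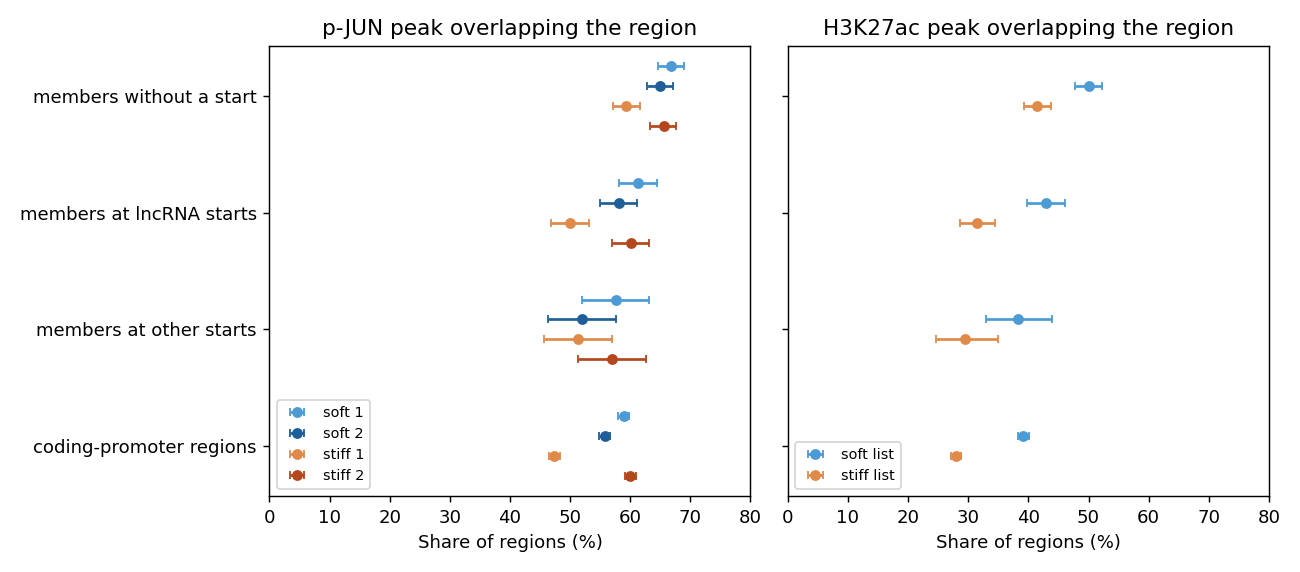
Share of regions overlapped by a p-JUN peak (left, 4 libraries) or an H3K27ac peak (right, 1 list per matrix), by class of region, with 95% Wilson intervals that cover counting error only. Regions without a start have the highest shares in each list, and stiff replicate 1 is the lowest p-JUN library in every class.

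The contrast with coding promoters was larger in the weakest than in the strongest H3K4me3 group. In the weakest of the 10 level groups, p-JUN overlapped 63.0% of 1146 distal regions and 29.0% of 464 coding-promoter regions, as means of the 4 libraries. H3K27ac overlapped 50.3% and 42.2% of these distal regions in the soft and stiff lists, and 13.8% and 11.6% of these coding-promoter regions. In the strongest group the p-JUN means were 87.1% of 60 distal and 85.5% of 1068 coding-promoter regions. H3K27ac overlapped 91.7% and 85.0% of these distal regions and 85.9% and 72.6% of these coding-promoter regions. With coding promoters weighted to the levels of the distal regions, a comparison chosen after the values had been seen, the p-JUN difference was 22.04 to 24.8 percentage points per library (mean 23.9, exact sign-flip permutation p = 0.125). The H3K27ac differences were then 27.7 points on soft and 23.4 on stiff, against 7.53 and 9.30 without weights. Weighting to width in bins of 200 bp gave 15.1 points for p-JUN, and 17.4 and 16.8 for H3K27ac. What else differs between weak promoters and weak distal regions was not tested.

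**Figure D3:**
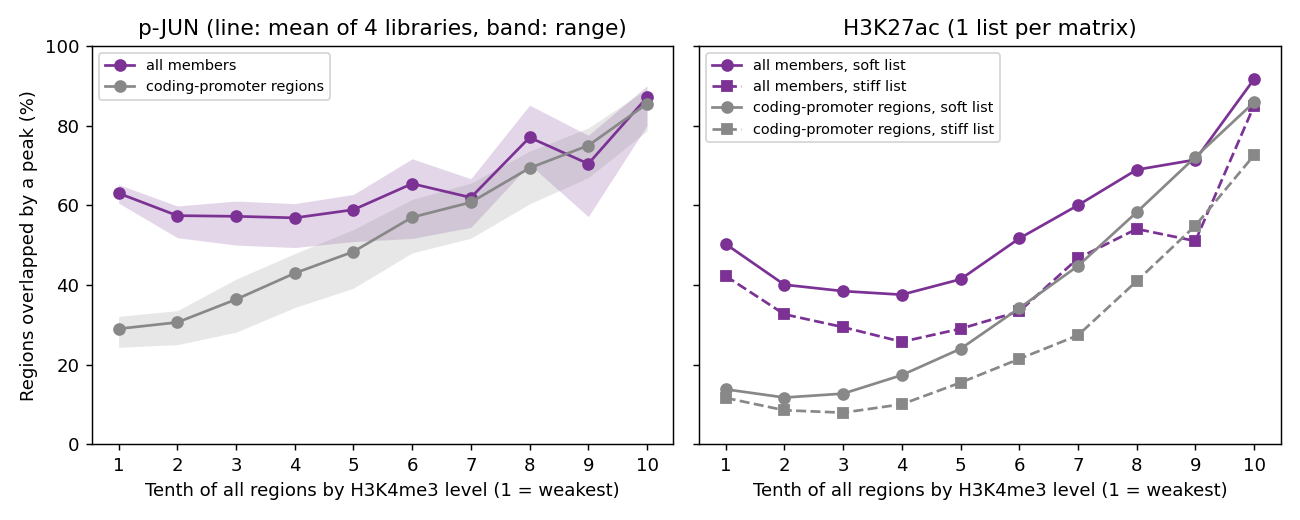
Share of regions overlapped by p-JUN (left) or H3K27ac (right) in 10 equal groups of all 16098 regions ordered by H3K4me3 level, for distal regions (all members) and coding-promoter regions. At the weakest level 63.0% of distal and 29.0% of coding-promoter regions had p-JUN, and the p-JUN shares come together at the strongest level, where under 100 distal regions lie in each of the last 4 groups.

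The 1860 regions without a start held both kinds of sequence, and p-JUN and H3K27ac differed between them. The 439 CpG-rich regions had p-JUN in 55.8% and 53.1% (soft) and 42.4% and 55.6% (labelled stiff), and H3K27ac in 26.7% and 16.6%. The other 1421 had p-JUN in 70.2%, 68.7%, 64.6% and 68.6%, and H3K27ac in 57.2% and 49.1%. Where p-JUN was called, its median summit held 44 to 48 fragments in the CpG-rich regions and 113 to 130 in the others. The H3K4me3 level ran the other way, with medians of 50, 59, 59 and 84 fragments in CpG-rich regions and 29, 34, 31 and 40 in the rest. The AP-1 site was found in 2.51% of the CpG-rich windows and 14.1% of the others.

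AP-1 sites were more frequent where p-JUN was called. Over all distal regions the site was within 150 bp of the H3K4me3 summit in 14.1% of those with p-JUN in all 4 libraries and 2.74% of those with none, and anywhere in the region in 37.8% and 7.48%. The median distance between the p-JUN and the H3K4me3 summit was 160.5 to 168 bp over the 4 libraries, and 209 to 221 bp at coding promoters. Among regions without a start that carried p-JUN and H3K27ac in every list, 636 were searched, and 132 had an AP-1 site within 50 bp of the p-JUN summit of soft replicate 1. The 4 of these 132 with the most p-JUN fragments are shown on hg19 with AP-1 sites in capitals, to show the site beside the summit. Other regions, among them some without an AP-1 site, had more p-JUN fragments.
chr16:90061523-90061702 (+ strand), near DBNDD1: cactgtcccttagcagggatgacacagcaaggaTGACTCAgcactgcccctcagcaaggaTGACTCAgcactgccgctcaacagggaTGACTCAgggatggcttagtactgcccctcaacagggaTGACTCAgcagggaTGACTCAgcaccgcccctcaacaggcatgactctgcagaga
chr6:86174616-86174676 (+ strand), near NT5E: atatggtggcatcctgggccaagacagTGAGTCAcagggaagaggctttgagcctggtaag
chr17:48716402-48716462 (+ strand), near ABCC3: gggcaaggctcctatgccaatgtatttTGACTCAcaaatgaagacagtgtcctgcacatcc
chr2:72342697-72342757 (+ strand), near CYP26B1: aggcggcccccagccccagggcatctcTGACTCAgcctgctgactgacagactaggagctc

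The first of these, 13.1 kb from the start of DBNDD1, was a tandem array. The whole region, chr16:90061302-90062331, held 34 AP-1 sites in 1030 bases. It had only 25 and 39 H3K4me3 fragments (soft) and 40 and 39 (stiff), but 2462 and 2236 p-JUN fragments (soft) and 1907 and 2071 (labelled stiff). Only 4 distal regions held 5 or more AP-1 sites, a count looked at after the values had been seen. Of the others, 2360 held none, 563 held 1 and 178 held 2 to 4. The region with the next highest number, 15 sites, lay 169 kb from a coding start of EXOC2 at chr6:862111-863585 and had 344, 314, 412 and 389 p-JUN fragments. The region near NT5E, the gene of a surface enzyme that makes adenosine, held 2 AP-1 sites and had 51, 53, 53 and 66 H3K4me3 fragments and 1004, 913, 781 and 983 p-JUN fragments. The regions near ABCC3, an efflux transporter, and CYP26B1, which breaks down retinoic acid, also held 2 sites each. Their p-JUN fragments were 944, 839, 840 and 1043 near ABCC3, and 884, 886, 851 and 1041 near CYP26B1. The p-JUN values of the soft libraries and of the libraries labelled stiff overlapped near NT5E, ABCC3 and CYP26B1, and both soft values were higher at the DBNDD1 array.

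By mean H3K4me3 level, the fifth and the sixth of the distal regions without a start were chr1:121484113-121485424 next to the centromere, with 428, 430, 514 and 662 H3K4me3 fragments, and chrX:153570227-153572057, 9.48 kb from the start of FLNA, which encodes the actin crosslinker filamin A, with 329, 306, 386 and 585. The chr1 region had p-JUN in all 4 libraries, at 1135, 1304, 1123 and 982 fragments. It had H3K27ac in both lists, at 602 (soft) and 1014 (stiff) fragments, against a median of 32 over distal regions, and H3K27me3 in 1 list. Repeated or high-signal sequence was not filtered out, so a signal raised by such sequence cannot be told apart here. The FLNA region had p-JUN in both soft libraries and in neither library labelled stiff, at 54 and 43 fragments.

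A further set, seen after the values were known, carried the letters of the B box, part of the internal promoter of transfer RNA genes, which RNA polymerase III reads. The B box was searched on both strands as GGTTCGA, any base, TCC. It was found in 31 distal regions (0.998%), 54 coding-promoter regions (0.483%) and 102 of all 16098 (0.634%). Of the 31, 21 had no start in the annotation used, 15 lay within 2.65 Mb of chromosome 6 (26305021 to 28950462) and 8 on chromosome 1. Their median H3K4me3 was 95 and 120 fragments (soft) and 129 and 178 (stiff). p-JUN overlapped 22 and 21 of the 31 (soft) and 18 and 19 (labelled stiff). H3K27ac overlapped 6 (soft) and 4 (stiff). The 3 strongest without a start are given with the B box in capitals, to show the letters around it.
chr6:28908853-28908943 (+ strand): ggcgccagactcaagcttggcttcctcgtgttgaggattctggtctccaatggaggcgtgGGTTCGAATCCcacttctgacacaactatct
chr6:27446591-27446681 (+ strand): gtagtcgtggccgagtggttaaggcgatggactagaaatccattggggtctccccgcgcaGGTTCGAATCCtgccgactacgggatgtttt
chr16:14379442-14379532 (- strand): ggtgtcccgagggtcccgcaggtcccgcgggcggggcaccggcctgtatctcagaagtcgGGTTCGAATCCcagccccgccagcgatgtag
The first and second, near TRIM27 and ZNF184 on chromosome 6, held 178, 251, 269 and 350, and 190, 205, 232 and 308 H3K4me3 fragments. The third held 161, 155, 216 and 273, and H3K27ac was not called at any of the 3.

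The strongest distal regions at lncRNA starts lay far above the median coding promoter in level. LINC00910 (chr17:41465508-41466902) held 1015 and 1269 fragments (soft) and 1244 and 1526 (stiff), with p-JUN in each p-JUN library and both H3K27ac lists covering it. RP11-14N7.2 held 530, 725, 735 and 977, LINC01410 held 533, 643, 731 and 1010, and CROCCP2 held 512, 622, 655 and 910. SLC9A3-AS1, antisense to a sodium-proton exchanger gene, held 482, 636, 568 and 885 and had neither p-JUN nor H3K27ac in any list. STAG3L5P-PVRIG2P-PILRB held 492, 555, 657 and 800. None of the 6 passed the test of stiff against soft. Regions in repeated or high-signal sequence were not left out, and whether such sequence raises these values was not tested.

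Among 20 lncRNAs linked to fibrosis or stress, 19 were in the annotation, 14 had an H3K4me3 region called in all 4 libraries within 1 kb of a start, and 4 had a distal region. The others were wider than the limit, like MALAT1 (2006 bp) and NORAD (2013 bp), or lay within 3 kb of a coding start, like LINC00941. MEG3, an imprinted lncRNA, had 120 and 135 fragments (soft) and 112 and 190 (stiff). LINC-PINT, a target of p53, had 1 region with 119, 148, 159 and 235 fragments and another with 224, 290, 325 and 441. DANCR had 72, 96, 104 and 129. PVT1 had 2 internal starts with weak H3K4me3, 23, 25, 21 and 41 fragments at the first, where p-JUN held 876, 787, 706 and 797 fragments. All 6 regions of this list had p-JUN in all 4 libraries, against 52.5% of all distal regions and 47.2% of those at lncRNA starts. None of the 6 passed the test of stiff against soft.

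Of 17 microRNA host transcripts 14 had a region and 10 had a distal one, 16 distal regions in all. p-JUN was called in all 4 libraries at 5 of these and in none at 8, and H3K27ac in both lists at 1. Over all distal regions at lncRNA starts these 3 shares were 47.2%, 33.2% and 28.6%. MIR17HG, host of a growth-promoting microRNA cluster, had 86 and 112 fragments (soft) and 113 and 157 (stiff), without p-JUN or H3K27ac. DNM3OS, whose microRNAs are known from fibrosis, had 61, 86, 59 and 86, with p-JUN in all 4 libraries. MIR29B2CHG, host of microRNAs that target collagens, had 116, 161, 159 and 247. MIR100HG had 3 distal regions. One of them, chr11:122049240-122051238, had 552, 507, 479 and 544 p-JUN fragments, while another, chr11:121969868-121971168, had no p-JUN peak. Of 30 host genes of small nucleolar RNAs, 27 had a region and 13 a distal one. None passed the test of stiff against soft, with log2 values between -0.07 and 0.17, and SNHG30 was the strongest with 397, 500, 500 and 693 fragments.

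Of 32 coding genes of fibrosis and AP-1, 6 were the nearest coding gene of a distal region without a start, 1 region each. Distances to a gene, here and below, are to its nearest coding start, and a region may lie inside the gene. The region 17.5 kb from COL1A1, the main collagen gene of scar tissue, had 52 and 57 H3K4me3 fragments (soft) and 51 and 53 (stiff), with 137, 104, 109 and 128 p-JUN fragments and H3K27ac in both lists. The region 9.07 kb from ACTA2, which encodes the smooth muscle actin of myofibroblasts, had 30, 48, 36 and 60, without p-JUN or H3K27ac. The region 245 kb from JUN had 40, 40, 48 and 69, with 267, 222, 231 and 261 p-JUN fragments and H3K27ac in both lists. TEAD1, a transcription factor of the Hippo pathway, had a region 18.3 kb from a coding start with 25, 20, 23 and 38 H3K4me3 and 313, 298, 239 and 304 p-JUN fragments. The regions nearest to TGFB2 and JUND had p-JUN in all 4 libraries and no H3K27ac. In raw fragments the soft and stiff values of these 6 regions overlapped, except at JUND and JUN, where both stiff values were higher, as they were for the median of all regions, and none of the 6 passed the test of stiff against soft.

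To compare the 2 matrices, log2 fragments of all 16098 regions were centred on each library's median and fitted with limma. At an adjusted p under 0.05, 199 of the 3105 distal regions passed, 50 higher and 149 lower on stiff. Of the 50, 24 were at lncRNA starts, 15 had no start and 11 were at other starts. For the 149 these counts were 40, 95 and 14. The share that passed in either direction was 6.76% at lncRNA starts, 5.91% without a start and 8.39% at other starts. Several of the 11 lay close together on chromosome 1 at small RNA and pseudogene starts, so the calls are not all independent. Repeated sequence was not filtered out, and whether it raised these calls was not tested. Over all regions 999 passed, 6.21% of those tested, 3.22% higher and 2.99% lower, so the distal share of 6.41% was near the background. With quantile normalization in place of the median, 73 distal regions passed, 37 higher and 36 lower, against 2.98% of all regions. With log2 of the deposited fold 0 passed in limma, of 475 with an unadjusted p under 0.05, and 0% of all regions passed. With the replicate number as a block 26 distal regions passed, 9 higher and 17 lower, against 0.702% of all regions. The median centred log2 level of the distal regions was -1.74 and -1.79 (soft) and -1.93 and -2.02 (stiff), a difference of -0.21 (two-sided exact permutation test of 2 against 2 libraries, p = 0.333, the smallest p this design allows). All regions were then set beside the distal ones at equal level. In the weakest of the 10 level groups the median log2 stiff over soft was -0.31 for distal and -0.30 for all regions, and in the strongest 0.03 and 0.05. Set against all regions of the same level, the median of the distal regions was -0.01. All regions include the distal ones, which were 1146 of the 1610 in the weakest group, so this is partly a comparison with themselves. Coding-promoter regions alone had medians of -0.29 in the weakest and -0.15 in the next weakest group, against -0.31 and -0.22 for distal regions. In the second strongest group coding promoters had 0.04, against 0.10 for distal regions. Without scaling the median fitted log2 stiff over soft was 0.45 over all regions and 0.31 over the distal regions, so the direction is relative to the other regions. Regions called on 1 matrix alone are not among these, since each had to be called in all 4 libraries.

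**Figure D4:**
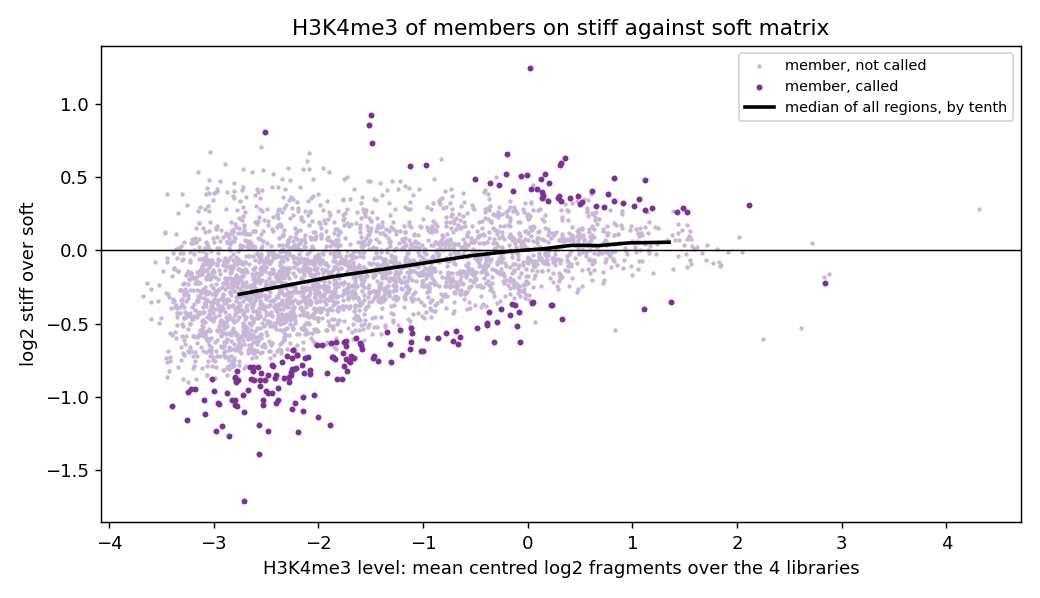
log2 stiff over soft of each of the 3105 distal regions against its mean centred log2 level, with regions that passed limma's adjusted p of 0.05 in dark and the median of all 16098 regions in 10 level groups as a line. The line falls to -0.30 at the weakest level, and the HIF1A-AS3 region stands apart at the top with 1.25.

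The region with the highest ratio, chr14:62215727-62217040, lay 598 bp from a start of HIF1A-AS3 and 749 bp beyond the end of HIF1A, the gene of an oxygen-regulated transcription factor. It held 89 and 109 fragments (soft) and 259 and 402 (stiff). Both stiff values were above both soft values, by 1.25 ± 0.11 (SE) on the log2 scale after centring (limma, adjusted p = 2.24e-08). It had neither p-JUN nor H3K27ac in any list, and it passed under each replicate left out, with quantile normalization (1.24) and with the replicate block. With the deposited fold over background, however, its log2 ratio turned to -0.37 (limma adjusted p = 0.412), and without scaling between libraries it was 1.71 and did not pass (limma adjusted p = 0.184). The region 17.6 kb from SMURF2, a ubiquitin ligase of TGF-β receptor signalling, held 34 and 43 (soft) and 94 and 107 (stiff), with 588 to 738 p-JUN fragments (log2 0.93 ± 0.18, limma adjusted p = 0.00238). A region within 1 kb of a noncoding transcript start of ARNT2, 108 kb from its nearest coding start, held 32, 47, 75 and 125 (log2 0.85 ± 0.18, limma adjusted p = 0.00433). It had 116 and 123 p-JUN fragments (soft) and 171 and 192 (labelled stiff). The SMURF2 region did not pass without stiff replicate 1 (adjusted p = 0.0513 in limma), nor the ARNT2 region without stiff replicate 2 (adjusted p = 0.0734). With the deposited fold their log2 ratios were 0.24 and 0.06, and neither passed. The lowest ratio was at chr5:19080214-19081000, 758 kb from CDH18, with 37 and 46 fragments (soft) and 16 and 19 (stiff) (log2 -1.71 ± 0.24, limma adjusted p = 0.000121). Another of the lowest lay 5.34 kb from a coding start of the complement gene C7, with 34, 30, 16 and 21 (log2 -1.27 ± 0.26, limma adjusted p = 0.004). The C7 region did not pass without soft replicate 1 (limma adjusted p = 0.0512). With the deposited fold the log2 ratios were -0.84 near CDH18 and -0.69 near C7, and neither passed. The 3 lists of named genes held 6, 16 and 13 distal regions, and 2 of these regions passed, against 6.21% of all regions. They were 1 of MIR100HG at chr11:121969868-121971168 with 75, 105, 141 and 208 fragments (log2 0.48 ± 0.13) and 1 of MIR3142HG with 61, 85, 43 and 81 (log2 -0.75 ± 0.17). The MIR100HG call was lost in 3 of the 4 fits with 1 library left out (highest limma adjusted p = 0.147) and with the replicate block (0.0845). The MIR3142HG call was lost in 1 of the 4 (without stiff replicate 1, limma adjusted p = 0.112), with quantile normalization (0.0597) and with the replicate block (0.0634), and with the deposited fold its log2 ratio was 0.55, in the other direction.

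**Figure D5:**
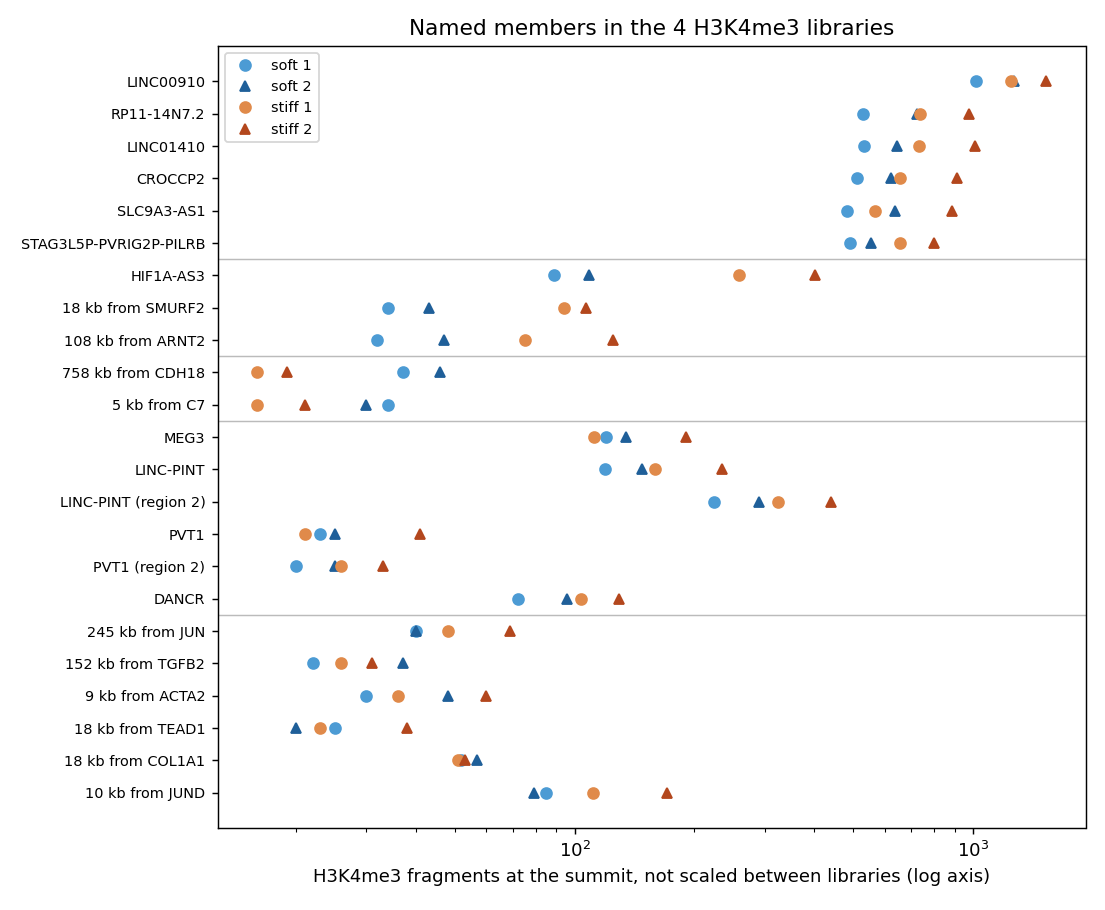
H3K4me3 fragments at the summit in each of the 4 libraries for the named distal regions, on a log axis and not scaled between libraries. At HIF1A-AS3, SMURF2 and ARNT2 both stiff libraries lie above both soft ones, at CDH18 and C7 below, and for most other regions stiff replicate 2, the library with the most fragments, is the highest.

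p-JUN differed less between matrices than between the 2 libraries labelled stiff. It covered 63.0% ± 1.87 (SD, n = 2) of distal regions in soft libraries and 59.4% ± 5.19 (SD, n = 2) in those labelled stiff, a difference of -3.57 percentage points (two-sided exact permutation test, p = 0.667, where 0.333 is the smallest p possible). Without stiff replicate 1 the difference was 0.0966. Of the 3105 regions 48 had p-JUN in both soft libraries and in no library labelled stiff, and 12 the reverse (1.55% and 0.386%). The same shares of coding-promoter regions were 1.449% and 0.268%, so these counts were near that background.

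The limits of the rule cut through continuous values. The widest distal regions were 1999 bp, at MIR100HG, and 1998 bp, and the narrowest left out were 2003 bp, at MIR155HG, and 2004 bp. The nearest to a coding start lay 3003 bp from FAM13B and 3004 bp from HOGA1, and the farthest left out lay 3000 bp from BAHCC1 and 2996 bp from CFLAR. Over all regions the median summit held 134 and 166 fragments (soft) and 171 and 248 (stiff). Of 12 stellate cell and myofibroblast markers 7 had an H3K4me3 region in all 4 libraries at a coding start, among them ACTA2, COL1A1, PDGFRB and VIM, while COL1A2, COL3A1, DES, LRAT and HAND2 had none. None of 4 hepatocyte and 3 leukocyte markers had one, nor the endothelial markers CDH5 and VWF (PECAM1 was not matched in the annotation), and of 3 epithelial markers EPCAM did.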

How the data were processed

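CUT&Tag peaks of LX-2 cells were analysed as deposited. Per the labels and the study's methods, the authors trimmed reads with Trim Galore, aligned them to hg19 with Bowtie2, used Picard on duplicates and MACS2 for peaks, and the versions and options are not given in the sources used here. The deposited peak lists give a fold over background (a ratio), a −log10 p, a −log10 q and a score, and the score was not used in any result. Each H3K27ac list was deposited as a merge. H3K4me3 and p-JUN libraries were called one by one.

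Fragments at a summit were solved from the deposited fold and −log10 p, within 0.01% for every peak used. Starts came from GENCODE release 44 on GRCh37. Overlap meant at least 1 bp. Regions in repeated or high-signal sequence were not left out. log2 fragments were centred on each library's median and fitted with limma 3.58.1 (R 4.3.3, trend and robust), with Benjamini-Hochberg adjustment over 16098 regions. Shares have 95% Wilson intervals. The 636 regions searched for AP-1 sites by the p-JUN summit leave out chromosome 8. Permutation tests were exact and two-sided. Scripts ran in Python 3.11.15 and were tested on simulated data. The reads behind these lists were not used, and total depth is unknown.

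Regions were named as follows: the 6 strongest with and the 6 strongest without a start at a lncRNA, the 3 highest and 3 lowest ratios, regions at genes of 3 lncRNA lists or nearest to 32 fibrosis and AP-1 genes, and those beside the limits. Some regions that this rule names, among them the 4 strongest without a start, are not reported here. AP-1 arrays and B boxes were named after their values were seen. The distal regions and all lists were chosen with earlier results of these data known. Alternatives were the overlap, the q threshold, the distance and start windows, equal list lengths, the scaling, the replicate block, width and level weights, and leaving out each library.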

Additional observations from a re-analysis of the deposited data

How the results depend on the processing

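The count of distal regions stayed within 2726 and 3412 under every alternative run. The share at lncRNA starts was 28.7% with starts within 500 bp, 32.4% within 2 kb and 32.8% with a −log10 q of at least 10. With that q the H3K27ac shares were 38.7% on soft and 30.05% on stiff, and with lists of equal length the soft share was 38.1%. The H3K27ac difference from coding promoters rose to 17.4 points on soft and 16.8 on stiff with width weights, and to 27.7 and 23.4 with level weights, which were chosen after seeing the data. The AP-1 difference between regions without a start and those at lncRNA starts, 6.70 points, was 1.86 within 50 bp of the summit and 10.4 over the whole region.

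The number of distal regions that passed stiff against soft, 199, fell to 73 with quantile normalization, and to 0 with the deposited fold or without scaling (475 and 139 with an unadjusted p under 0.05 in limma). It was 26 with the replicate block, and the p-JUN difference was -3.57 in the paired fit. Same-numbered libraries did not deviate together (correlation -0.06 over 16098 regions), so the numbers were not taken as pairs. With 1 library left out the number was 62 to 197, the lowest without stiff replicate 2. The stiff minus soft difference of the libraries' median log2 levels over the distal regions, -0.21, was -0.26 to -0.16 with 1 library left out and 0.26 without scaling. The p-JUN difference between matrices was -7.25 to 0.0966 with 1 library left out, and it turned positive without stiff replicate 1. The causes were not tested.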
